A study of Mus musculus with 30 samples.

Results

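The genes described here make cholesterol and fatty acids under the control of the SREBP transcription factors. A list of 35 genes was taken by pathway role: 18 sterol synthesis enzymes, 6 genes that control SREBP or move sterols, and 11 enzymes that make, desaturate or elongate fatty acids. Of these, 34 were measured out of 18193 genes on the arrays, and all 34 were among the 15726 genes that passed the filter on dim signals. The acetyl-CoA acetyltransferase gene Acat2 was not analysed here.

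Cells were astrocytes of young adult male mice that carried the Tg(Aldh1l1-eGFP) OFC789Gsat reporter on a Swiss Webster background, in the injured and the control groups alike. In this line the Aldh1l1 promoter drives GFP, and GFP-positive cells were sorted by FACS after papain digestion of the brain. Stroke was a 1 h middle cerebral artery occlusion (MCAO) followed by reperfusion, and its control was sham surgery without occlusion. Cells were collected after 1 day (5 MCAO and 4 sham arrays), 3 days (3 and 3 arrays) and 7 days (3 and 3 arrays). Neuroinflammation was induced by an intraperitoneal dose of 5 mg/kg lipopolysaccharide (LPS) of E. coli O55:B55, against endotoxin-free saline, and cells were collected after 1 day (5 LPS and 4 saline arrays). All values below are log2 of the authors' normalised array intensity, and a log2 fold is the difference between the means of 2 groups, injured minus control. A gene was called at a limma adjusted p under 0.05 over all 15726 genes, and "higher", "lower" and "fell" are used of called genes unless values are given.

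Cholesterol is built from acetyl-CoA by way of mevalonate, farnesyl diphosphate, squalene and lanosterol, and most enzymes of this chain are targets of SREBP-2, the product of Srebf2. Fatty acid synthesis and desaturation enzymes are targets mainly of SREBP-1, the product of Srebf1. When sterols are scarce, Scap carries the SREBP precursors from the endoplasmic reticulum to the Golgi, where they are cut and released, and when sterols are plentiful the Insig proteins hold Scap back. In the adult brain cholesterol does not cross the blood-brain barrier, and astrocytes make sterols and long polyunsaturated fatty acids that they pass to neurons on apolipoprotein E particles.

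After MCAO at 1 day, 8 of the 34 genes were lower than in sham astrocytes and none was higher. They were Mvk, Mvd, Tm7sf2, Nsdhl and Sc5d of the sterol chain, and Acss2, Elovl6 and Fads2 of the fatty acid enzymes. Their promoters are shown because these are the genes that were called. Each is 250 bases before to 50 bases after the RefSeq start site on GRCm38.p6, 5′ to 3′ on the gene's strand. Capitals mark the NF-Y box CCAAT, the GC box GGGCGG and the E box CACGTG, read on both strands.
Mvk, chr5:114444019-114444318 (+): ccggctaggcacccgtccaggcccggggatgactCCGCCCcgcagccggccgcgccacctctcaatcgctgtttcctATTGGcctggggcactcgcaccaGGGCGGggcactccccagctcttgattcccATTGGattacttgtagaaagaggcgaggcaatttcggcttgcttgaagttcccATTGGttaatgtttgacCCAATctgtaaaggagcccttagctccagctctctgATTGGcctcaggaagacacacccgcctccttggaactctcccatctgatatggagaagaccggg
Mvd, chr8:122443373-122443672 (-): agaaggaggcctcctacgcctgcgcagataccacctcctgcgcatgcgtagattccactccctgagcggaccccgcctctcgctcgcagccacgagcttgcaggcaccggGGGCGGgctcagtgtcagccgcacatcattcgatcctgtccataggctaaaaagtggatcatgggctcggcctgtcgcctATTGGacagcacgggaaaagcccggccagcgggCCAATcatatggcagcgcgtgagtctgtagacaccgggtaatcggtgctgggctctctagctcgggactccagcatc
Tm7sf2, chr19:6067801-6068100 (-): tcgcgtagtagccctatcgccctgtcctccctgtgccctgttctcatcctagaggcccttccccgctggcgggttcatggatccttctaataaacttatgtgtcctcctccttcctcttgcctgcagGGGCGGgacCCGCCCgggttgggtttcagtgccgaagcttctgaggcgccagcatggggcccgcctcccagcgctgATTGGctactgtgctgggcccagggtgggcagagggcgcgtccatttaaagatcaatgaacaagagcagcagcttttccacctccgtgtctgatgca
Nsdhl, chrX:72918271-72918570 (+): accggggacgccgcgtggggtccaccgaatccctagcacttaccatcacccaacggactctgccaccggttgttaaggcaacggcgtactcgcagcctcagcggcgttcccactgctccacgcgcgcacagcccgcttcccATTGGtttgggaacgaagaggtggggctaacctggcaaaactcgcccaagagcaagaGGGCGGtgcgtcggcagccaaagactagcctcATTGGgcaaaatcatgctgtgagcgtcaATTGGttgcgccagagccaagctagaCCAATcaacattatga
Sc5d, chr9:42264251-42264550 (-): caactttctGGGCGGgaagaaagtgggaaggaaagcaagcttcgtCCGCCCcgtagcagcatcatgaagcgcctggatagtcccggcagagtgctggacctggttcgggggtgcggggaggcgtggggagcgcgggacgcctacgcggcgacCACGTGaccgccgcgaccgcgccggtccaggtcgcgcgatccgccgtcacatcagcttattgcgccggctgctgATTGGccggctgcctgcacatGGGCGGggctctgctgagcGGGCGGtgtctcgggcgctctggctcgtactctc
Acss2, chr2:155517793-155518092 (+): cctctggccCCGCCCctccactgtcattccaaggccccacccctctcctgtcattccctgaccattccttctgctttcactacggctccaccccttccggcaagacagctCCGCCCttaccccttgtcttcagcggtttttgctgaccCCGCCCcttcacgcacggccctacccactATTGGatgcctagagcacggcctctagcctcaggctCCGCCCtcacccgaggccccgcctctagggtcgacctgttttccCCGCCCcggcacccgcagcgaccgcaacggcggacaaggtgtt
Elovl6, chr3:129532136-129532435 (+): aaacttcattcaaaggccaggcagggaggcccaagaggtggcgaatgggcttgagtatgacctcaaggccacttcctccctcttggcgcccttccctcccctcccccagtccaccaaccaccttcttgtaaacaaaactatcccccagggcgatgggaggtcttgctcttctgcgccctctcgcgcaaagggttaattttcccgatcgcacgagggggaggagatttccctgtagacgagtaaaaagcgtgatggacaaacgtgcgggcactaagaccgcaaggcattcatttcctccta
Fads2, chr19:10101454-10101753 (-): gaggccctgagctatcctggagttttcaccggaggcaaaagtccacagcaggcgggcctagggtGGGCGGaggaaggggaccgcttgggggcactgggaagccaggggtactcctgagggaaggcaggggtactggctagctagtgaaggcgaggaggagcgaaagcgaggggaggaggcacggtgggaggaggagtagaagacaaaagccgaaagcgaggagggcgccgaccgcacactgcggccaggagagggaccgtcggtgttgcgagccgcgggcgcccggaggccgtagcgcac

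In 28 of the 35 genes a promoter was matched in the RefSeq table, with 37 promoters in all because some genes have several start sites. CCAAT stood in 24 of the 37 (64.9%), against 37.4% of all 32851 promoters and 37.1% of those of genes that passed the filter. GGGCGG stood in 27 (73.0%), against 35.7% and 56.3%, and CACGTG in 7 (18.9%), against 7.15% and 9.13%. The promoters of Mvk and Nsdhl hold 5 and 4 CCAAT boxes, and that of Acss2 holds 5 GC boxes. None of these motifs was found in the window of Elovl6. The SREBP element TCACNCCAC was matched in 0 of the 8 promoters of the called genes. Over the 37 promoters it was matched in 1 (2.7%), against 1.24% of all, and that one was Hmgcs1, shown here with the element in capitals.
Hmgcs1, chr13:119690188-119690247 (+): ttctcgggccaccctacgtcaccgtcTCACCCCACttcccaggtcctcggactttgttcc
A match of letters is a description of the sequence and not a measured binding site.

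The 10 astrocyte markers were bright on every array, with list means of 13.09 to 13.29 in MCAO and 13.36 to 13.55 in sham astrocytes at 1 day. Markers of other cells were also present. The mean of 10 oligodendrocyte markers was 8.29, 8.37, 9.67, 10.06 and 9.49 on the MCAO arrays of 1 day, against 8.26, 9.63, 10.39 and 10.17 on the sham arrays. Neuronal and endothelial list means were highest on MCAO array 4 (8.91 and 9.58) and sham array 3 (9.20 and 9.23). No defining marker of the 7 lists was under the filter on every array except 1 of 10 for microglia. The arrays also formed 2 sets by their highest intensity, 31338 to 35553 on 16 arrays and 20222 to 26595 on 14. All 1-day surgery arrays were in the brighter set and all 7-day arrays in the dimmer one, while array 3 of each 3-day group, LPS arrays 1 to 3 and saline arrays 1 and 2 were in the brighter set. LPS array 5 stood apart, with a median intensity of 94 against 68 to 73 on the other 29 arrays and an astrocyte list mean of 12.36 against 13.05 to 13.52 on the other LPS arrays. In sorted bulk samples, fewer cells of a type and less RNA per cell cannot be told apart.

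At 1 day after MCAO, 33 of the 34 genes had a log2 fold below 0 and the median was -0.64, whereas 58.4% of all genes were below 0 and their median was -0.05. These values hold for the brightest probe set of each gene. Among these 33 genes, other probe sets had folds up to 0.11 for Fdft1, 0.07 for Acly, 0.06 for Srebf2, Stard4 and Fdps, and 0.02 for Me1. With the mean of all probe sets, 32 folds were below 0 and the median was -0.42. The 8 calls, all lower, were 23.5% of the genes, against 6.17% of all 15726 genes called lower, 6.49% called higher and 12.7% called either way. At an unadjusted p under 0.05 there were 19, again all lower, against 23.3% of all genes in either direction. In 18 genes (52.9%) all 5 MCAO arrays lay below all 4 sham arrays, which was so in 15.2% of all genes, and in 0 genes did they lie above. The mean over the 34 genes was 10.90, 10.86, 10.79, 10.96 and 10.79 on the MCAO arrays, against 11.65, 11.42, 11.26 and 11.53 on the sham arrays. The highest MCAO array thus stayed below the lowest sham array. MCAO array 1 and sham array 1 had like oligodendrocyte list means, 8.29 and 8.26, and 34-gene means of 10.90 and 11.65. This pair differed in endothelial (7.10 and 7.66) and astrocyte list means (13.16 and 13.46), and sham array 1 had the highest 34-gene mean of its group. Astrocyte list means did not overlap at 1 day either, with 13.09 to 13.29 in MCAO and 13.36 to 13.55 in sham astrocytes. The part of astrocyte, oligodendrocyte, neuronal and endothelial RNA in the values of any array was not tested. Without MCAO array 4 and sham array 3, 9 genes were called lower, with 9.65% of all genes called. Fdps was the addition (log2 fold -1.04, adjusted p = 0.0454), but its other probe set had a fold of 0.06 with all arrays.

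**Figure D1:**
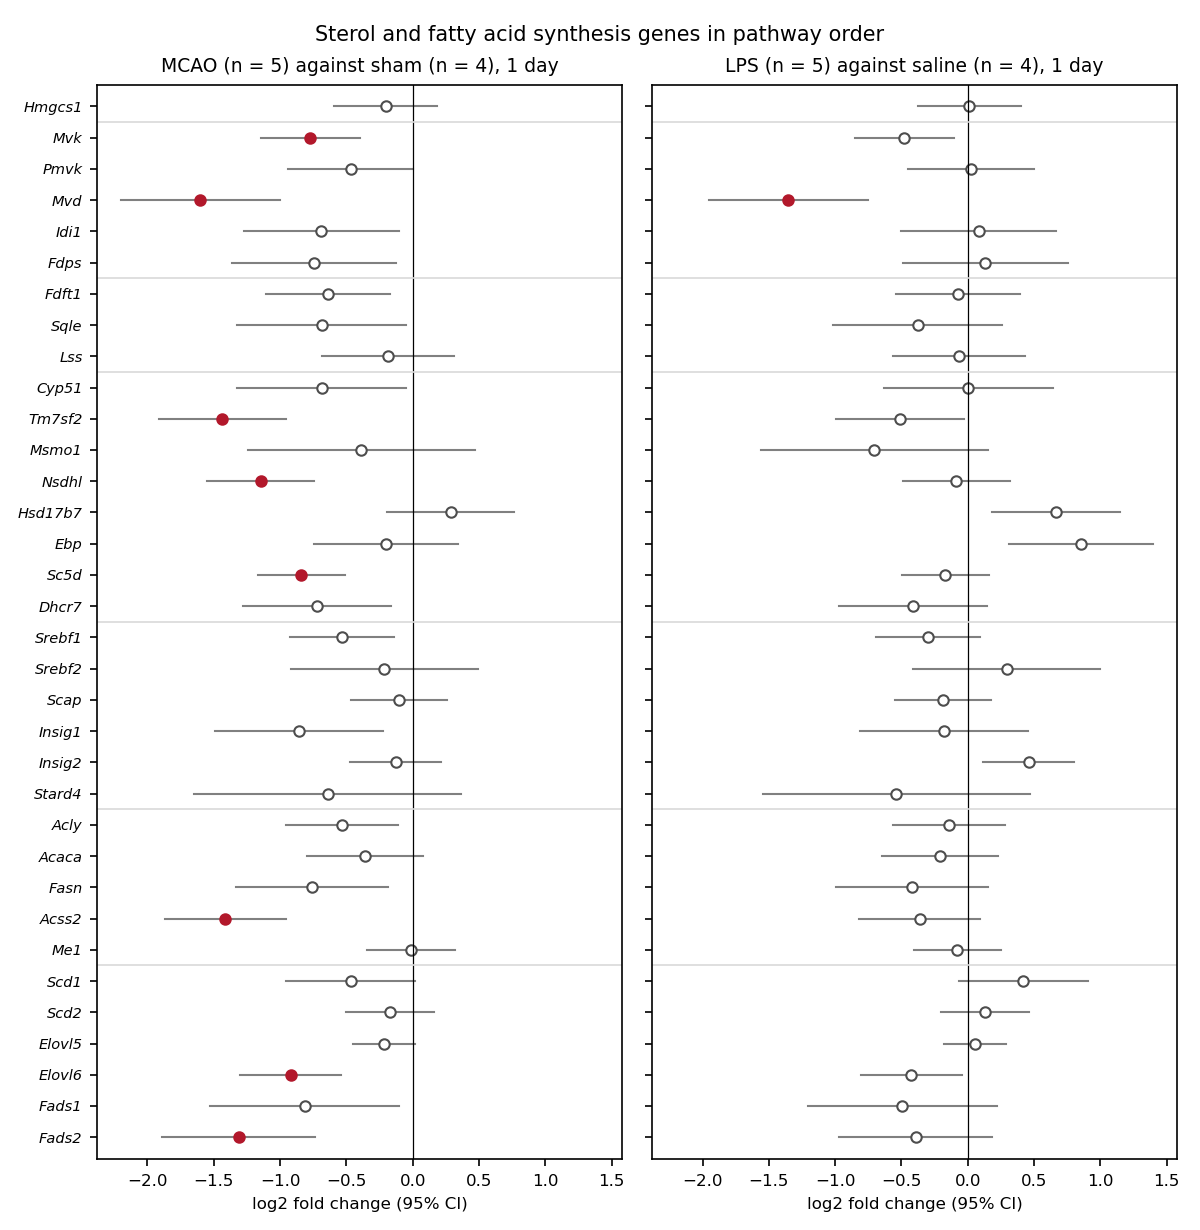
Log2 fold changes of the 34 genes in pathway order, MCAO over sham (left, n = 5 and 4 arrays) and LPS over saline (right, n = 5 and 4) at 1 day. Points are limma estimates, lines their 95% confidence intervals, filled points have an adjusted p under 0.05, and grey lines separate the pathway steps. On the left 8 points are filled and 33 lie below 0, and on the right only Mvd is filled and 22 lie below 0.

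The first step towards mevalonate was represented by Hmgcs1, which condenses acetyl-CoA with acetoacetyl-CoA. It had 13.98, 13.68, 13.75, 13.91 and 13.78 in MCAO astrocytes at 1 day, against 13.96, 13.89, 14.11 and 14.13 in sham astrocytes. The groups overlapped, with a log2 fold of -0.20 (95% confidence interval -0.59 to 0.19, adjusted p = 0.642).

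From mevalonate to farnesyl diphosphate, all 5 genes had negative folds at 1 day and 2 were called. Mvd, the decarboxylase that makes isopentenyl diphosphate, had 8.0, 7.48, 8.11, 8.31 and 7.93 in MCAO astrocytes, against 10.42, 9.72, 8.51 and 9.61 in sham astrocytes. Sham array 3 was the lowest sham array and lay just above the highest MCAO array, so the groups did not overlap. Mvd fell to 33.0% of the sham level (log2 fold -1.60 ± 0.29 SE, adjusted p = 0.000404). Mvk, the mevalonate kinase, had 7.83, 7.84, 7.81, 8.31 and 7.89 in MCAO astrocytes, against 8.69, 8.83, 8.48 and 8.83 in sham astrocytes. The other 4 MCAO arrays lay within a narrow band below array 4, which was still under every sham array. Mvk fell to 58.6% of sham (log2 fold -0.77 ± 0.18 SE, adjusted p = 0.00435). Idi1, the isomerase, had no overlap between groups either, with 11.10 to 11.49 in MCAO and 11.80 to 12.06 in sham astrocytes, but its fold of -0.69 had an adjusted p of 0.121. Pmvk, the phosphomevalonate kinase, and Fdps, the farnesyl diphosphate synthase, overlapped, with folds of -0.47 and -0.74.

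None of the 3 genes from squalene to lanosterol was called at 1 day. Fdft1, the squalene synthase, had 12.14, 12.14, 11.58, 12.32 and 11.66 in MCAO astrocytes, against 12.87, 12.47, 12.43 and 12.64 in sham astrocytes. Sqle, the squalene epoxidase, had 11.98 to 12.39 against 12.59 to 13.06. In both genes every MCAO array lay below every sham array, with folds of -0.64 (adjusted p = 0.0678) and -0.69 (adjusted p = 0.169). Lss, which closes the rings to form lanosterol, overlapped, with a fold of -0.19.

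Between lanosterol and cholesterol, 3 of 8 genes were lower at 1 day. Tm7sf2, a sterol reductase that acts after Cyp51, had 10.24, 10.28, 10.37, 10.28 and 10.36 in MCAO astrocytes, against 11.89, 11.59, 11.56 and 11.93 in sham astrocytes. The MCAO arrays had an SD of 0.06, and the gap to the sham arrays was far wider than the spread of either group. Tm7sf2 fell to 37.0% of sham (log2 fold -1.44 ± 0.23 SE, adjusted p = 0.000108). Nsdhl, the dehydrogenase that works in removing the methyl groups of lanosterol, had 10.34, 10.54, 10.53, 10.61 and 10.52 in MCAO astrocytes, against 11.80, 11.53, 11.40 and 11.89 in sham astrocytes. The groups were well apart, and Nsdhl fell to 45.2% of sham (log2 fold -1.15 ± 0.20 SE, adjusted p = 0.000204). Sc5d, the desaturase that makes the substrate of Dhcr7, had 10.12, 9.88, 9.98, 10.10 and 10.03 in MCAO astrocytes, against 11.00, 10.78, 10.72 and 10.94 in sham astrocytes. It fell to 55.9% of sham without overlap (log2 fold -0.84 ± 0.16 SE, adjusted p = 0.000617).

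The other 5 genes of that stretch were not called at 1 day. Dhcr7, the last reductase, had 11.40, 10.67, 9.88, 10.76 and 10.09 in MCAO astrocytes, against 11.73, 11.14, 10.86 and 11.40 in sham astrocytes. MCAO array 1 reached into the sham range, and the fold of -0.72 had an adjusted p of 0.0857. Without MCAO array 1, Dhcr7 was called beside the same 8 genes (log2 fold -0.93, adjusted p = 0.0228). With the description numbers as a replicate block, which pairs the other 4 MCAO arrays with the sham arrays and so leaves MCAO array 1 without weight, the fold was the same and the adjusted p was 0.0263. Cyp51, the lanosterol demethylase, and Msmo1, a methyl sterol oxidase, had folds of -0.69 and -0.39. Ebp, the sterol isomerase, had a fold of -0.20. Hsd17b7, a ketoreductase of the same demethylation steps, was the 1 gene of the 34 with a positive fold, 0.29, with 11.14 to 11.60 in MCAO and 10.62 to 11.58 in sham astrocytes.

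Among the genes that control SREBP or transfer sterols, 0 of 6 were called at 1 day, and 2 had an unadjusted p under 0.05. Insig1, itself a target of SREBP, had 10.29, 10.15, 9.51, 10.13 and 9.52 in MCAO astrocytes, against 11.22, 10.80, 10.28 and 10.81 in sham astrocytes. MCAO array 1 lay level with sham array 3, the lowest sham array, and the fold was -0.86 (adjusted p = 0.0687). Srebf1 had 11.72, 12.65, 11.92, 11.95 and 12.18 in MCAO astrocytes, against 12.89, 12.74, 12.33 and 12.52 in sham astrocytes, a fold of -0.53 (adjusted p = 0.0697). Only MCAO array 2 reached the sham range. Folds of Srebf2 (-0.21), Scap (-0.10) and Insig2 (-0.13) were small, and for Scap the interval ran from -0.46 to 0.26. Stard4, a carrier of cholesterol between membranes, had a fold of -0.64 with an interval of -1.65 to 0.37.

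In fatty acid synthesis, all 5 genes had folds below 0 at 1 day and 1 was called. Acss2, which makes acetyl-CoA from acetate, had 10.07, 10.39, 10.47, 10.19 and 10.39 in MCAO astrocytes, against 11.67, 11.53, 11.81 and 11.87 in sham astrocytes. The lowest sham array exceeded the highest MCAO array by more than the range of either group. Acss2 fell to 37.5% of sham (log2 fold -1.41 ± 0.22 SE, adjusted p = 7.68e-05), the smallest adjusted p among the 34 genes. Acly, which makes acetyl-CoA from citrate, had 11.63 to 12.15 in MCAO and 12.27 to 12.55 in sham astrocytes, without overlap (log2 fold -0.53, adjusted p = 0.0926). Fasn, the fatty acid synthase, had 10.79 to 11.58 and 11.62 to 11.99, also without overlap (log2 fold -0.76, adjusted p = 0.0761). Acaca, the acetyl-CoA carboxylase, overlapped by 1 array (log2 fold -0.36). Me1, the malic enzyme that supplies NADPH, was level, with a fold of -0.01 and an interval of -0.34 to 0.32.

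Of the 6 desaturases and elongases, 2 were lower at 1 day, and in all 6 every MCAO array lay below every sham array. Fads2, the desaturase at the entry to long polyunsaturated fatty acids, had 11.21, 11.29, 11.55, 11.27 and 11.73 in MCAO astrocytes, against 13.19, 12.58, 12.24 and 12.86 in sham astrocytes. It fell to 40.3% of sham (log2 fold -1.31 ± 0.28 SE, adjusted p = 0.00193). Elovl6, which lengthens palmitate, had 9.21, 9.71, 9.57, 9.58 and 9.65 in MCAO astrocytes, against 10.91, 10.05, 10.12 and 10.78 in sham astrocytes. It fell to 52.8% of sham (log2 fold -0.92 ± 0.18 SE, adjusted p = 0.00105), and the sham arrays formed an upper and a lower pair. Fads1, the desaturase that acts after Fads2, had 11.87 to 12.14 against 12.44 to 13.20 and a fold of -0.81, with an adjusted p of 0.137. Scd1 and Scd2, which desaturate stearate, and Elovl5, which lengthens polyunsaturated chains, had narrow spreads and folds of -0.47, -0.17 and -0.22.

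**Figure D2:**
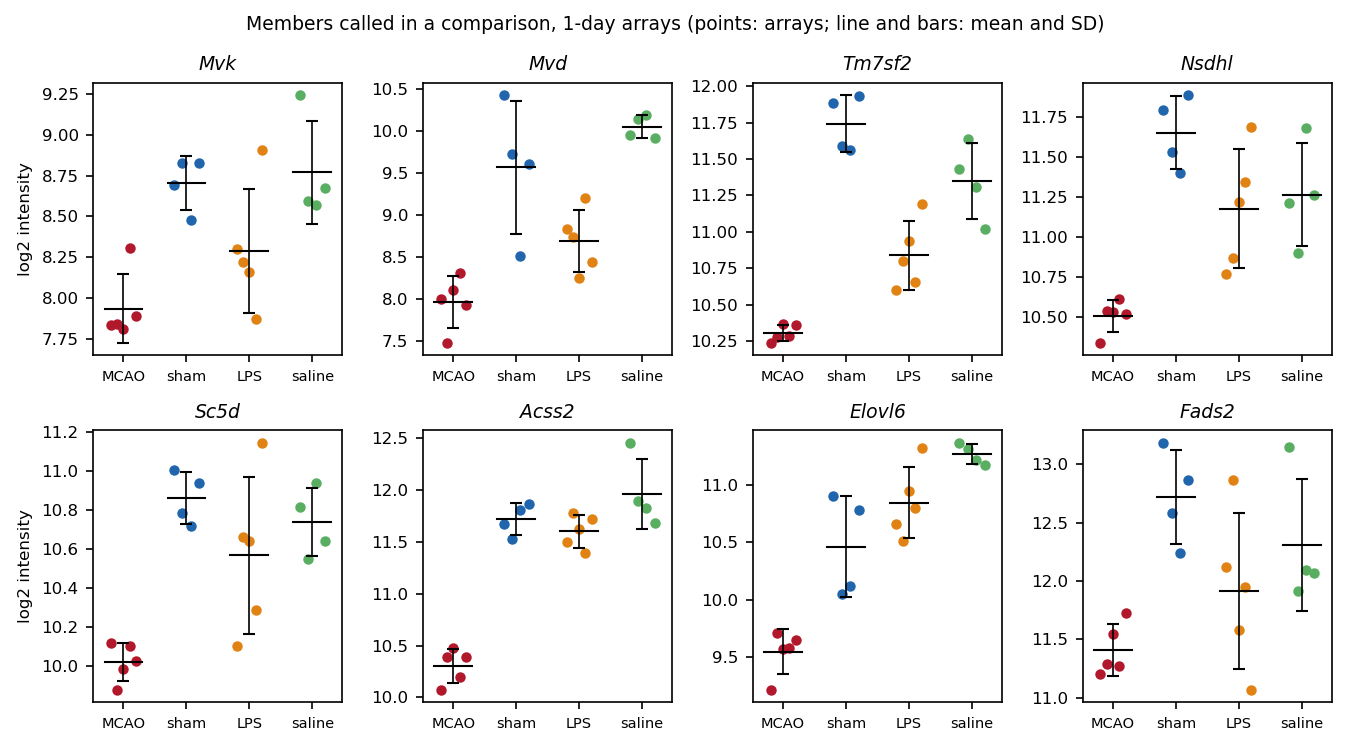
Log2 intensity of the 8 genes called after MCAO at 1 day, on every 1-day array of the MCAO (n = 5), sham (n = 4), LPS (n = 5) and saline (n = 4) groups. Points are arrays, horizontal lines group means and bars 1 SD, and each panel has its own axis. In each panel all MCAO points lie below all sham points, while LPS and saline points overlap in all panels except Mvd.

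Over the sterol enzymes, 5 of 17 were called lower at 1 day and 16 folds were below 0, and over the fatty acid enzymes 3 of 11 were called lower and 11 folds were below 0. Of the sterol enzymes 9 (52.9%) and of the fatty acid enzymes 9 (81.8%) had MCAO arrays entirely below the sham arrays. The number of calls depended on which arrays and terms entered the fit, for all genes as well as for these. With the 1-day surgery arrays fitted alone 22 genes were called lower, and 32.9% of all genes were called either way. Without LPS array 5 in the fit 15 were, with 18.5% of all genes, and with the set of arrays as a covariate 13 were, with 15.1%, against 12.7% in the fit of all 8 groups. All 8 genes were called each time. With the mean of all probe sets of a gene in place of its brightest, 7 genes were called, beside 14.7% of all genes. Mvk (log2 fold -0.46, adjusted p = 0.0700), Sc5d (-0.42, 0.0658) and Elovl6 (-0.62, 0.0598) were not among the 7. All 10 other probe sets of the 8 genes had folds below 0 at 1 day, but some lay close to 0. The weakest per gene were -0.02 for Elovl6, -0.05 for Sc5d and -0.15 for Mvk. For Acss2, Fads2 and Mvd they were -0.80, -1.19 and -1.44, while Tm7sf2 and Nsdhl have 1 probe set each.

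At 3 days after MCAO, 0 of the 34 genes were called, against 0.674% of all genes called either way (0.61% higher and 0.0636% lower). At an unadjusted p under 0.05 there were 7 genes, all lower, against 9.53% of all genes. Of the 34 folds 31 were below 0, with a median of -0.27, against 48.2% of all genes and a median of 0.01. Both values rested on single arrays: without MCAO array 2 the median was -0.10 with 22 folds below 0, without sham array 3 it was -0.18 with 23, without sham array 1 it was -0.41 with 32, and without MCAO array 3 it was -0.46 with 31. MCAO arrays lay entirely below sham arrays in 5 genes (14.7%), against 6.94% of all genes, and above in 1, Me1, against 5.74%. The mean over the 34 genes was 10.83, 10.52 and 11.29 on the MCAO arrays, against 11.01, 11.12 and 11.46 on the sham arrays. Array 3 was the highest in both groups, and it was the 1 array of each group from the brighter set. Oligodendrocyte list means were 9.83, 8.33 and 8.26 on the MCAO arrays, against 7.21, 7.11 and 9.32 on the sham arrays. Lists of 2 other cell types did not overlap and were higher on the MCAO arrays: pericytes and smooth muscle had means of 7.36, 7.94 and 7.38, against 6.84, 6.86 and 7.27 on the sham arrays, and endothelial cells had 6.60, 6.68 and 6.43, against 6.29, 6.07 and 6.20. The part of these differences between arrays was not tested.

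Sc5d came closest at 3 days, with 9.69, 9.45 and 10.03 in MCAO astrocytes, against 10.39, 10.44 and 10.55 in sham astrocytes (log2 fold -0.74, adjusted p = 0.0803). Elovl6 had 9.73, 9.52 and 10.02 in MCAO astrocytes, against 10.43, 10.65 and 10.56 in sham astrocytes (log2 fold -0.79, adjusted p = 0.114). In both genes the groups did not overlap. Acss2 had 10.96, 10.37 and 12.10 in MCAO astrocytes, against 11.81, 11.90 and 12.30 in sham astrocytes (log2 fold -0.86, adjusted p = 0.165). Here MCAO array 3 reached the sham range and the other 2 did not. Dhcr7 had 10.87, 9.81 and 11.30 in MCAO astrocytes, against 11.21, 11.49 and 11.74 in sham astrocytes, and again MCAO array 3 alone overlapped (log2 fold -0.82, adjusted p = 0.352). Msmo1 had the most negative fold at 3 days, with 12.21, 12.11 and 13.06 in MCAO astrocytes, against 13.20, 13.25 and 13.57 in sham astrocytes (log2 fold -0.88, adjusted p = 0.669). The groups did not overlap, but its interval of -1.92 to 0.16 was wide. LPS array 5 was far below the other LPS arrays for Msmo1 (10.07 against 12.73 to 13.56). With that array left out of the whole fit, Msmo1 was still not called at 3 days. In that fit Sc5d (adjusted p = 0.0161) and Elovl6 (0.0476) were called, beside 1.42% of all genes. Of the fatty acid desaturases, Fads2 (-0.19), Fads1 (-0.09) and Scd1 (0.07) had small folds at 3 days with overlapping arrays. Without MCAO array 3, 4.13% of all genes were called, and 5 genes of the 34 were lower: Acss2 (log2 fold -1.33, adjusted p = 0.00109), Sc5d (-0.89, 0.0143), Elovl6 (-0.92, 0.0324), Nsdhl (-0.86, 0.0460) and Tm7sf2 (-0.91, 0.0492). With arrays of the dimmer set alone, 2 MCAO and 2 sham, Acss2 (-1.19, 0.00359) and Sc5d (-0.84, 0.0377) were called, beside 4.02% of all genes.

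At 7 days 0 of the 34 genes were called, against 0.0254% of all genes, and the smallest adjusted p was 1. Unadjusted p was under 0.05 in 3 genes, Mvk, Fdft1 and Elovl6, against 2.62% of all genes. Folds were below 0 in 26 genes and the median was -0.27, against 51.2% of all genes and a median of -0.01. MCAO arrays lay entirely below sham arrays in 13 genes (38.2%), against 6.68% of all genes. By branch, of the 17 sterol enzymes all had folds below 0 and 12 (70.6%) had no overlap, with a median of -0.41. Of the 11 fatty acid enzymes 5 had folds below 0 and 1 (9.09%) lay entirely below, with a median of 0.03. These counts hold for the brightest probe set of each gene. In the sterol branch, other probe sets had folds above 0 for Fdft1 (up to 0.17), Fdps (0.07) and Lss (0.02). For Fdft1 only 1 of 3 other probe sets had a fold below 0. The difference between the branches was not tested.

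Examples at 7 days were Fdft1, with 12.40, 12.23 and 11.84 in MCAO astrocytes, against 12.68, 12.90 and 12.79 in sham astrocytes (log2 fold -0.64, adjusted p = 1). Mvd had 9.78, 9.62 and 9.22 in MCAO astrocytes, against 9.93, 10.44 and 10.26 in sham astrocytes (log2 fold -0.67, adjusted p = 1). Dhcr7 had 11.77, 11.39 and 11.40 in MCAO astrocytes, against 11.95, 12.02 and 12.08 in sham astrocytes (log2 fold -0.50, adjusted p = 1). In each the groups were apart but the difference was not called. Fads2, by contrast in the fatty acid branch, had 11.68, 12.30 and 12.06 in MCAO astrocytes, against 11.94, 12.42 and 11.93 in sham astrocytes, overlapping, with a fold of -0.09 and an interval of -0.79 to 0.62. Fasn had a fold of 0.12, with 11.80 to 12.67 in MCAO and 11.74 to 12.42 in sham astrocytes. Among the control genes Srebf1 had a fold of 0.02 and Scap of 0.30 at 7 days, both overlapping. Markers of oligodendrocyte precursors also differed at 7 days, with list means of 8.33 to 8.67 in MCAO and 6.68 to 6.91 in sham astrocytes. Of these 7 markers 2 were called higher, against 0.0254% of all genes. Pericyte and smooth muscle markers did not overlap either, with list means of 7.07 to 7.47 in MCAO and 6.77 to 7.00 in sham astrocytes. Their part in the 7-day values was not tested.

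**Figure D3:**
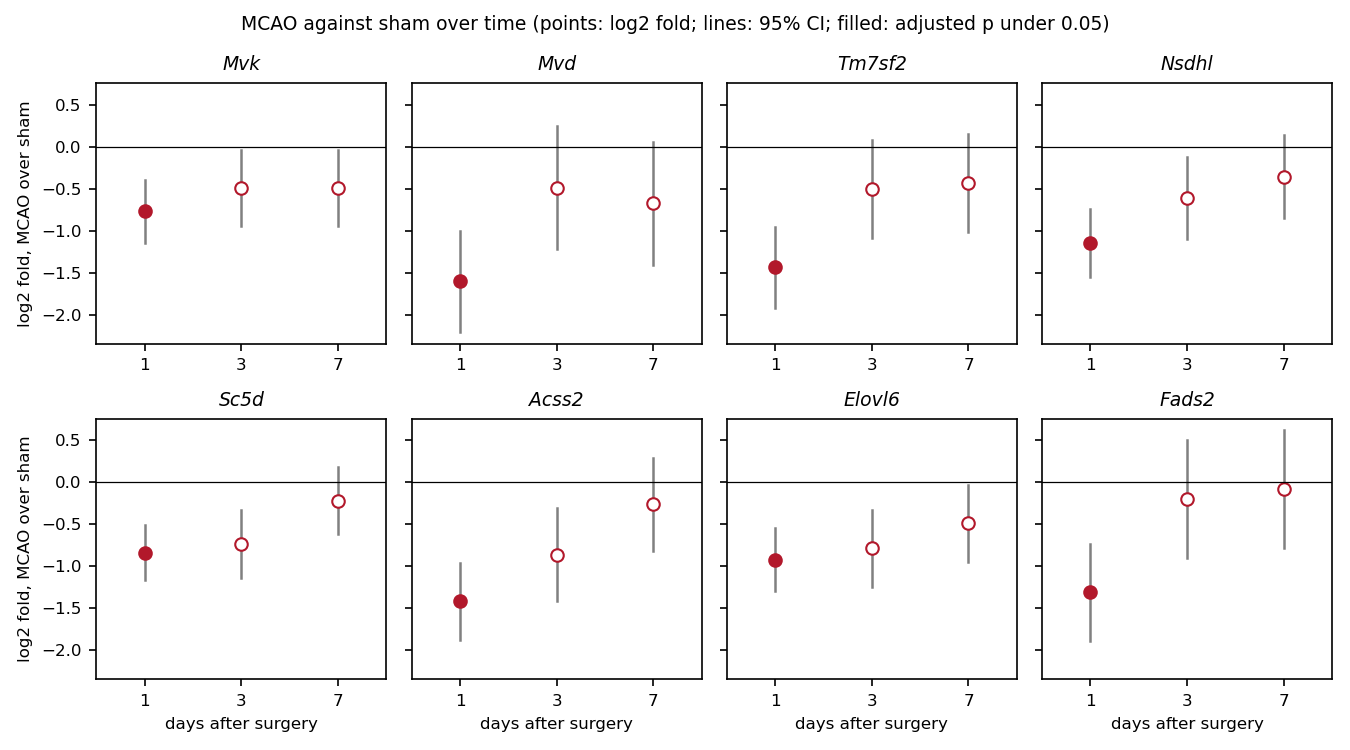
Log2 fold of MCAO over sham at 1, 3 and 7 days after surgery for the 8 genes called at 1 day (n = 5 and 4 arrays at 1 day, 3 and 3 at 3 and 7 days). Points are limma estimates, lines 95% confidence intervals, and filled points have an adjusted p under 0.05. Filled points stand at 1 day alone, and the estimates at 3 and 7 days lie between -0.86 and -0.09.

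Whether the MCAO effect itself differed between days was tested in the same fit. Between 3 days and 1 day 0 of the 34 genes were called (0.00636% of all genes) and 3 had an unadjusted p under 0.05 (5.99% of all genes). Between 7 days and 1 day 0 were called (0.356% of all genes, 0.0636% higher) and 6 had an unadjusted p under 0.05 (8.6% of all genes), 5 of them with a less negative effect at 7 days. The smallest adjusted p belonged to Acss2, whose effect was -0.26 at 7 days and -1.41 at 1 day (difference 1.15, adjusted p = 0.205). Fads2 had -0.09 at 7 days and -1.31 at 1 day (difference 1.22, adjusted p = 0.315). With the MCAO and sham arrays of these days fitted alone, 6 genes were called for the difference between 7 days and 1 day, each with a less negative effect at 7 days, beside 9.77% of all genes. Day of collection and set of arrays changed together between 1 and 7 days and cannot be told apart.

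**Figure D4:**
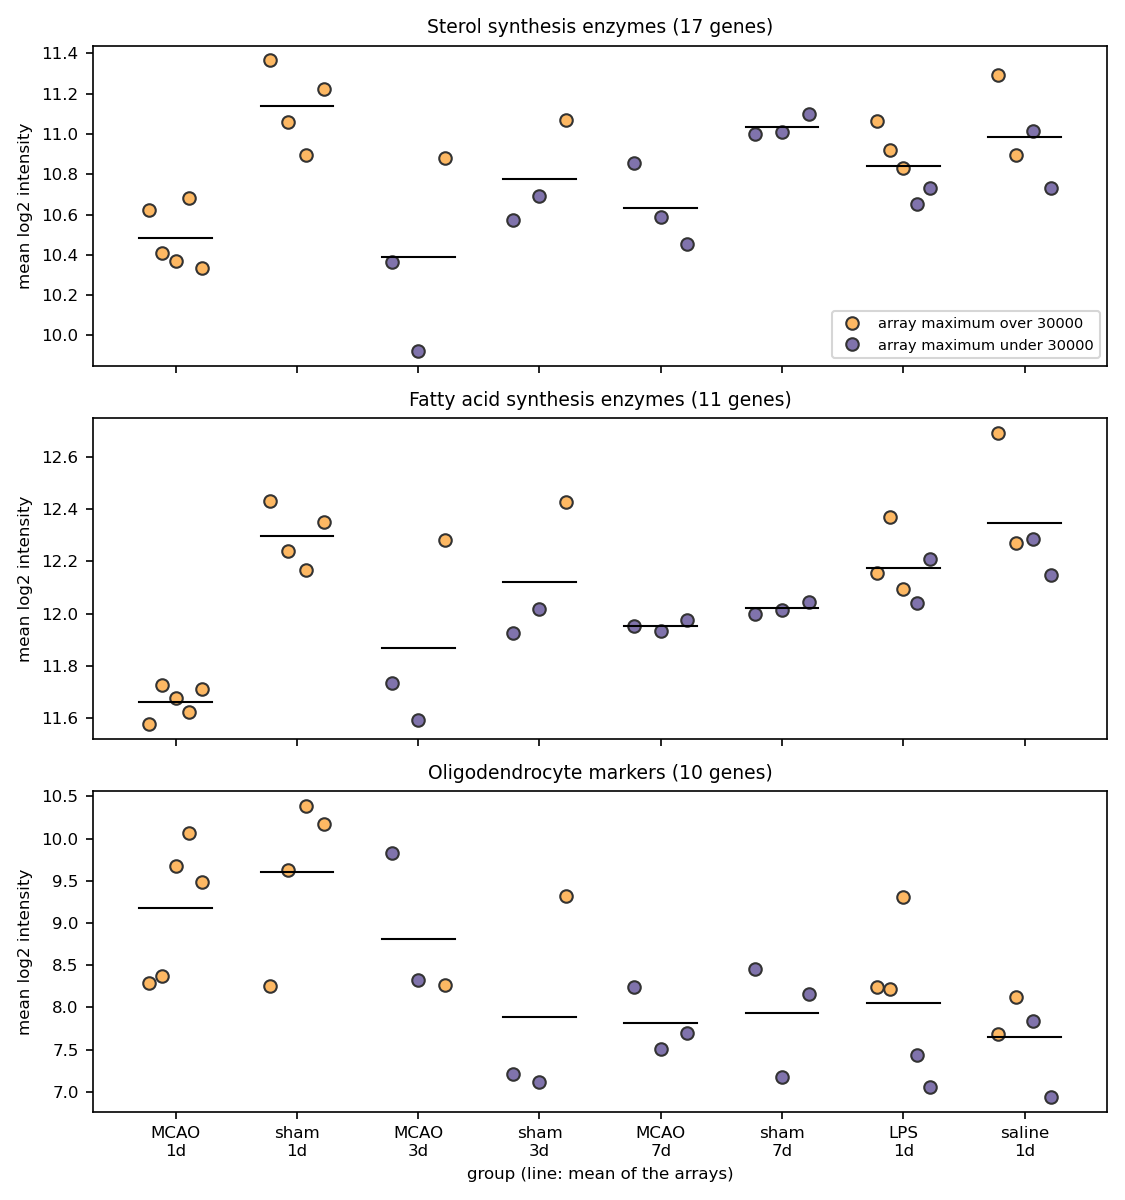
Mean log2 intensity per array over the 17 sterol synthesis enzymes (top), the 11 fatty acid synthesis enzymes (middle) and 10 oligodendrocyte markers (bottom), by group, with colour for the set of arrays by highest intensity and lines for group means. At 1 day all MCAO arrays lie below all sham arrays in both gene groups, at 7 days they do so again by a smaller margin (sterol enzymes 10.45 to 10.86 against 11.00 to 11.10, fatty acid enzymes with group means of 11.95 against 12.02), and LPS and saline overlap.

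After LPS, 1 of the 34 genes was called, Mvd, against 3.11% of all genes called either way, 2.37% called higher and 0.744% called lower. Of the 34 folds 22 were below 0 and 12 above, with a median of -0.16, against 40.3% of all genes below 0 and a median of 0.07. LPS arrays lay entirely below saline arrays in 1 gene, Mvd, and above in 0, against 0.865% and 1.88% of all genes. The mean over the 34 genes was 11.42, 11.39, 11.12, 11.09 and 11.15 on the LPS arrays, against 11.71, 11.25, 11.37 and 11.17 on the saline arrays, and the groups overlapped. Saline array 1 was the highest of its group in 23 of the 34 genes, against 34.8% of all genes.

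Mvd had 8.83, 8.74, 8.26, 9.21 and 8.44 in LPS astrocytes, against 9.95, 10.14, 10.19 and 9.92 in saline astrocytes. The groups were clearly apart, and Mvd fell to 39.1% of saline (log2 fold -1.35 ± 0.29 SE, adjusted p = 0.00765). The call rests on 1 probe set, marked as one that can match several transcripts. The other probe set of Mvd gave -0.52 after LPS (adjusted p = 0.472) and -1.44 after MCAO at 1 day. Within the brighter set of arrays the LPS fold was -1.43 (adjusted p = 0.0624) and within the dimmer set -1.23 (adjusted p = 0.0829).

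Other genes of the group were not called after LPS. Ebp had 10.37, 9.68, 9.82, 9.56 and 8.76 in LPS astrocytes, against 9.05, 8.51, 9.01 and 8.57 in saline astrocytes, a fold of 0.85 (adjusted p = 0.0784). LPS array 5 was the 1 LPS array inside the saline range. Mvk had 8.30, 8.22, 8.16, 7.87 and 8.90 in LPS astrocytes, against 9.24, 8.60, 8.57 and 8.67 in saline astrocytes, a fold of -0.48 (adjusted p = 0.165). Again LPS array 5 alone overlapped, and without it Ebp (log2 fold 1.07, adjusted p = 0.0113) and Mvk (-0.63, 0.0234) were called beside Mvd, with 3.96% of all genes called. Hsd17b7 had 10.55 to 12.01 in LPS and 10.34 to 10.93 in saline astrocytes, a fold of 0.66 (adjusted p = 0.132). Insig2 had a fold of 0.46 (adjusted p = 0.144). Tm7sf2 had 10.60, 10.80, 10.94, 10.66 and 11.19 in LPS astrocytes, against 11.43, 11.64, 11.31 and 11.02 in saline astrocytes, a fold of -0.51 (adjusted p = 0.269). Only LPS array 5 and saline array 4 overlapped. Elovl6 had 10.66, 10.51, 10.95, 10.80 and 11.32 in LPS astrocytes, against 11.37, 11.31, 11.22 and 11.18 in saline astrocytes, a fold of -0.42 (adjusted p = 0.240), and LPS array 5 alone reached the saline range. For 6 genes of the sterol chain, Hmgcs1, Pmvk, Idi1, Fdft1, Lss and Cyp51, LPS folds lay between -0.08 and 0.08, with intervals as wide as -0.63 to 0.64 for Cyp51. These values hold for the brightest probe set of each gene. Other probe sets gave -1.46 for Idi1, -0.63 and -0.25 for Cyp51, -0.45 and 0.22 for Lss, -0.78 to 0.66 for Hmgcs1 and 0.06 to 0.32 for Fdft1, while Pmvk has 1 probe set. Several genes were far lower on LPS array 5 than on the other 4, among them Stard4 at 6.13 against 8.66 to 10.60 and Fads1 at 11.07 against 12.79 to 13.84. Yet this array was the lowest LPS array in only 6 of the 34 genes and the highest in 15. Over all genes it was the lowest in 20.9% and the highest in 50.5%.

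The 8 genes called after MCAO at 1 day had folds after LPS of -0.48 for Mvk, -1.35 for Mvd, -0.51 for Tm7sf2, -0.09 for Nsdhl, -0.17 for Sc5d, -0.36 for Acss2, -0.42 for Elovl6 and -0.39 for Fads2. The difference between the MCAO and LPS effects was tested for each gene, and 0 of the 34 were called, against 1.39% of all genes (0.693% higher and 0.699% lower). At an unadjusted p under 0.05 there were 9, all more negative after MCAO, against 12.8% of all genes. Nsdhl came closest (difference -1.06, 95% confidence interval -1.63 to -0.49, adjusted p = 0.0514), followed by Acss2 (-1.05, adjusted p = 0.0944). For Mvd, the difference was -0.25 with an interval of -1.09 to 0.60. Both injuries had controls of their own, so the 2 effects shared no arrays. Among the 18 fits that left out 1 array, between 0 and 2 genes were called, with 2 called when LPS array 5 was left out (3% of all genes).

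Of 26 other measured genes of the sterol and fatty acid pathways and of SREBP processing, 4 (15.4%) were lower and 2 higher after MCAO at 1 day, against 6.17% and 6.49% of all genes. Tecr, the reductase of the elongation cycle, had 11.55, 11.68, 11.69, 11.89 and 11.80 in MCAO astrocytes, against 12.94, 12.60, 12.59 and 12.75 in sham astrocytes, and fell by 0.99 on the log2 scale (adjusted p = 8.65e-06). Hacd3, the dehydratase of that cycle, fell by 0.58 (adjusted p = 0.0140). Acsl3, an acyl-CoA synthetase, fell by 0.92 (adjusted p = 0.0429), and Tmem97, a sterol-responsive membrane protein, fell by 0.77 (adjusted p = 0.0381). Higher were Cyb5r3, the cytochrome b5 reductase that passes electrons to desaturases, by 1.16 (adjusted p = 0.00856), and Elovl1, an elongase of very long chains, by 0.64 (adjusted p = 0.0166). In all 6 the MCAO and sham arrays did not overlap.

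After LPS, 1 of the 26 (3.85%) was called, against 3.11% of all genes. It was Elovl1, higher by 0.73 (adjusted p = 0.0214), with 1 of 5 LPS arrays inside the saline range. At 3 and at 7 days after MCAO 0 of the 26 were called, against 0.674% and 0.0254% of all genes. The folds of Cyb5r3 on these days were 1.46 and 1.15. Of 9 measured LXR receptors and targets, which answer to an excess of sterols, 2 were lower after MCAO at 1 day, against 6.17% of all genes. These were the sterol exporter gene Abcg4, with a fold of -0.96 (adjusted p = 0.00272), and Lpcat3, which remodels phospholipids, with a fold of -0.96 (adjusted p = 0.0145). None of the 9 was called at 3 or 7 days after MCAO or after LPS, against 0.674%, 0.0254% and 3.11% of all genes. Abca1, which exports cholesterol to apolipoproteins, had a fold of -0.46 at 1 day after MCAO, not called.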

How the data were processed

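Total RNA of sorted astrocytes (about 20 ng) was amplified in a two-cycle protocol and hybridised to Affymetrix mouse arrays, per the labels' protocols. The deposited values are probe set intensities that the authors made with RMA, per the submitters' processing notes, which give no version. They are linear whole numbers from 9 to 35553, so log2 was taken here. The genome build behind the probe annotation is not given in the sources used here. Of 45037 probe sets, 34945 had 1 symbol in the platform annotation, 932 several and 9160 none, and 34741 of the first kind matched a RefSeq gene identifier without any change of symbol. Each of 18193 genes was read from its 1-symbol probe set with the highest mean over 30 arrays. Genes at log2 5 or more on at least 3 arrays were kept (15726).

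One limma 3.58.1 model (R 4.3.3) held the 8 groups without covariates, with eBayes variances on 22 residual and 4.55 prior degrees of freedom, and adjusted p-values by Benjamini-Hochberg over all 15726 genes, two-sided. SE thus rest on a spread pooled over all groups. Its script was tested on simulated data. Every measured gene of the list was named, called ones in full, and of the other pathway and LXR lists the called genes. The genes, lists and tests were chosen with earlier results of these data known. The sample titles call the arrays biological replicates, but it is not stated whether each came from its own mouse or from a pool. The p-values therefore reflect the variation among these arrays, and the precision is limited by the number of arrays.

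Same-numbered arrays were checked for shared deviations from their group means. By the numbers in the sample descriptions, the 4 MCAO and sham pairs of 1 day correlated at 0.16 to 0.50. The same-numbered array was the best match in 2 of these 4. Pairs of 3 days correlated at 0.03 to 0.21 and those of 7 days at 0.00423 to 0.375, with 2 of 3 best on each day. LPS and saline share 1 number. The main model ignores any pairing, and replicate blocks were fitted only as alternatives. Alternatives covered normalisation, filters, probe sets, variance models, array weights, blocks and arrays left out. Those by set of arrays, and without both arrays numbered 4 in the descriptions, were chosen after seeing the data. Promoters came from RefSeq (GRCm38.p6).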

Additional observations from a re-analysis of the deposited data

Results flagged for a closer look

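In groups of 4 or 5 arrays, 136 sets of values were searched for an array that stood far from the others, relative to the whole range of its group. There were 11 such values, and chance gives about 1 in 20. On LPS array 5 there were 3: Msmo1 at 10.07 (nearest other LPS array 12.73), Sqle at 10.49 (12.24) and Scap at 11.21 (10.88). On MCAO array 4 of 1 day there were 3, all above the rest: Mvk at 8.31 (nearest 7.89), Fdps at 8.34 (7.54) and Stard4 at 9.37 (8.92). On saline array 1 there were 3, also above the rest: Mvk at 9.24 (nearest 8.67), Idi1 at 12.70 (11.70) and Fads2 at 13.15 (12.10). The last 2 lay below the other MCAO arrays of 1 day, Elovl6 at 9.21 on array 1 (nearest 9.57) and Insig2 at 10.63 on array 2 (10.97). With LPS array 5 left out, Mvd stayed called after LPS, and with MCAO array 4 left out all 8 genes stayed called at 1 day.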

How the results depend on the processing

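The 8 genes called after MCAO at 1 day kept direction and call in every alternative run except the mean of all probe sets (7 called, 5 shared), and counts when 1 array was left out were 8 to 10. At 1 day the count was 25 with array weights (39.2% of all genes called) and 22 with the compared groups alone (32.9%). It was 15 without LPS array 5 in the whole fit (18.5%) and 14 at an adjusted p under 0.1 (16.9%). With the set of arrays as covariate it was 13 (15.1%), against 12.7% of all genes in the main setting. At 3 days, where 0 were called (0.674% of all genes), it was 8 with array weights (12.3%) and 2 without LPS array 5 (1.42%). It was 2 on the dimmer arrays alone (4.02%), 1 with median centring (0.908%) and 1 at an adjusted p under 0.1 (1.3%). When 1 array was left out it was 0 to 5 (5 without MCAO array 3, 4.13%). At 7 days it was 1 with array weights (3.34%) and 0 to 0 when 1 array was left out. After LPS, where 1 was called (3.11% of all genes), it was 3 with array weights (2 of them higher, 10.6% of all genes). It was also 3 with title numbers as a replicate block (6.18%). That block leaves LPS array 5 without weight and gives the same 3 folds as leaving it out. The LPS count was 2 with median centring (2.67%) and 2 at an adjusted p under 0.1 (5.18%). It was 0 with the mean of all probe sets (3.59%) and 0 with probe sets not marked as shared (2.95%). On the brighter arrays alone it was 0 (2.86%), and 1 to 3 when 1 array was left out (3 without LPS array 5, 3.96%). For the MCAO effect minus the LPS effect, with 1.39% of all genes called in the main setting, it was 17 with array weights (13.5%). It was 2 at an adjusted p under 0.1 (2.89%) and 2 with the set as covariate (2.52%). It was 1 with the mean of probe sets (1.96%) and 1 with the title block (2.73%). When 1 array was left out it was 0 to 2. For 7 days minus 1 day it was 11 with array weights (20%), 6 with the compared groups alone (9.77%) and 0 to 0 when 1 array was left out, and for 3 days minus 1 day 0 to 1. The cause of these shifts was not tested.

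No called fold changed sign in any alternative run. The median fold was -0.42 at 1 day with the mean of probe sets, 0.13 after LPS with array weights, -0.36 at 7 days without MCAO array 1, and -0.46 to -0.10 at 3 days over all alternatives, lowest without MCAO array 3 and highest without MCAO array 2. With description numbers as a replicate block 9 genes were called at 1 day and 1218 of all genes. That block leaves MCAO array 1 without weight, and leaving this array out with no block gave 9 and 1424, against 8 and 1991 with all arrays. By title numbers, the 1-day surgery pairs correlated at -0.24 to 0.15, and the same-numbered array was the best match in 1 of 4. LPS and saline pairs correlated at -0.40 to 0.42, with 2 of 4 best. The title block left the 1-day surgery count at 8. A description block for LPS could not be fitted because the groups share 1 number. SE of the 34 genes ran from 0.11 to 0.49 at 1 day and from 0.14 to 0.60 at 3 and 7 days.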
